A study of Mus musculus with 2 samples.

Results

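Imprinted genes are expressed mainly from the allele inherited from 1 parent, the mother or the father. A known set of 35 mouse imprinted genes was chosen by gene symbol from the 24319 rows of the expression tables, with earlier results of these data in view, and all 35 were listed. They were described in cells labelled as lymphatic endothelial cells (LECs, the cells that line lymphatic vessels) from the skin of C57BL/6 mouse embryos at E15.5. Markers of other cell types were also present, as given below. There were 2 RNA sequencing libraries, and the question they address is how gene expression differs when Dot1l, which encodes the methyltransferase for lysine 79 of histone H3, is deleted in endothelium. The control library was labelled wild type and the other was labelled Dot1l knockout, a deletion that the protocol describes as endothelial. The sources used here do not name the Cre driver, the deleted part of the gene or the way the cells were purified. Each library was a pool of RNA from 2 to 3 biological replicates, so there was 1 library per genotype. No spread between replicates can be measured, so no test was run and the differences below have no replicate check.

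The parent-specific expression of these genes is set by DNA methylation that is laid down at imprinting control regions in the germ line and kept through later divisions. Most imprinted genes lie in clusters, in which a long noncoding RNA expressed from 1 parental chromosome often silences protein-coding genes on that same chromosome. Many are expressed at high levels in the fetus, where paternally expressed genes tend to promote growth and maternally expressed genes tend to restrain it, and are expressed less after birth. Mesenchymal cells of the embryo are known for high levels of several of them, among them H19, Igf2, Mest and Dlk1.

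Levels are given as FPKM (fragments per kilobase of transcript and per 1000000 mapped fragments), a unit that is per length and can be compared between genes. No header states the unit: it was inferred from the tools named in the submitters' processing notes and from the values. Differences were taken between values of log2(FPKM + 1), with control subtracted from the knockout-labelled value, which understates the change of low genes. A gene was tested when it reached 1 FPKM in at least 1 library, and was called lower or higher when this difference reached 2-fold, a call of size and not of significance. The summed FPKM was 415537 in control and 530294 in the knockout-labelled library. Dot1l was at 5.86 FPKM in control and at 10.4 FPKM in the knockout-labelled library, so its level over the whole gene does not check the label. Cell markers differed between the libraries as well. Of 9 tested lymphatic endothelial markers 7 were lower in the knockout-labelled library, with Prox1 at 59.3 FPKM in control and 13.1 FPKM in the other and Lyve1 at 526 and 552 FPKM. Of 16 pan-endothelial markers 12 were lower. In control the 10 listed lymphatic endothelial markers summed to 1534 FPKM and 15 fibroblast markers to 4672 FPKM. All 14 macrophage markers and all 10 mast cell markers were higher. The macrophage markers summed to 49.9 FPKM in control and to 3452 FPKM in the knockout-labelled library, and the mast cell markers to 112 and 13066 FPKM. In control, C1qc of the macrophage list and Fcer1a of the mast cell list were listed at 0.

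The 35 chosen imprinted genes were lower in the knockout-labelled library, with few exceptions. This did not hold for a wider list of imprinted genes, given below, in which 3 of 32 tested genes were lower and 7 higher. Of the 35 members 31 were tested, and 25 of these were lower by 2-fold or more, 2 were higher by as much and 4 lay within 2-fold. Over all 13296 genes tested, 15.5% were lower and 16.8% were higher by the same rule. Of the tested members, Rtl1, Mkrn3 and Usp29 reached 1 FPKM only in control, where they were higher, and Ascl2 only in the knockout-labelled library. The median difference of the tested members was -1.74, beside 0.00 for all genes tested. The members together took 3.72% of the summed FPKM in control and 0.647% in the knockout-labelled library. With both libraries scaled to sum to 1000000, 26 members were lower and 1 higher, beside 3330 genes lower and 1900 higher among all tested, and the median of all genes was -0.33. In the same comparison fibroblast markers had a median difference of -1.92, pan-endothelial markers of -1.88 and macrophage markers of 6.12, and the part of these cell types in the values of the imprinted genes was not tested. In bulk RNA, fewer cells of a type and less RNA per cell cannot be told apart.

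**Figure D1:**
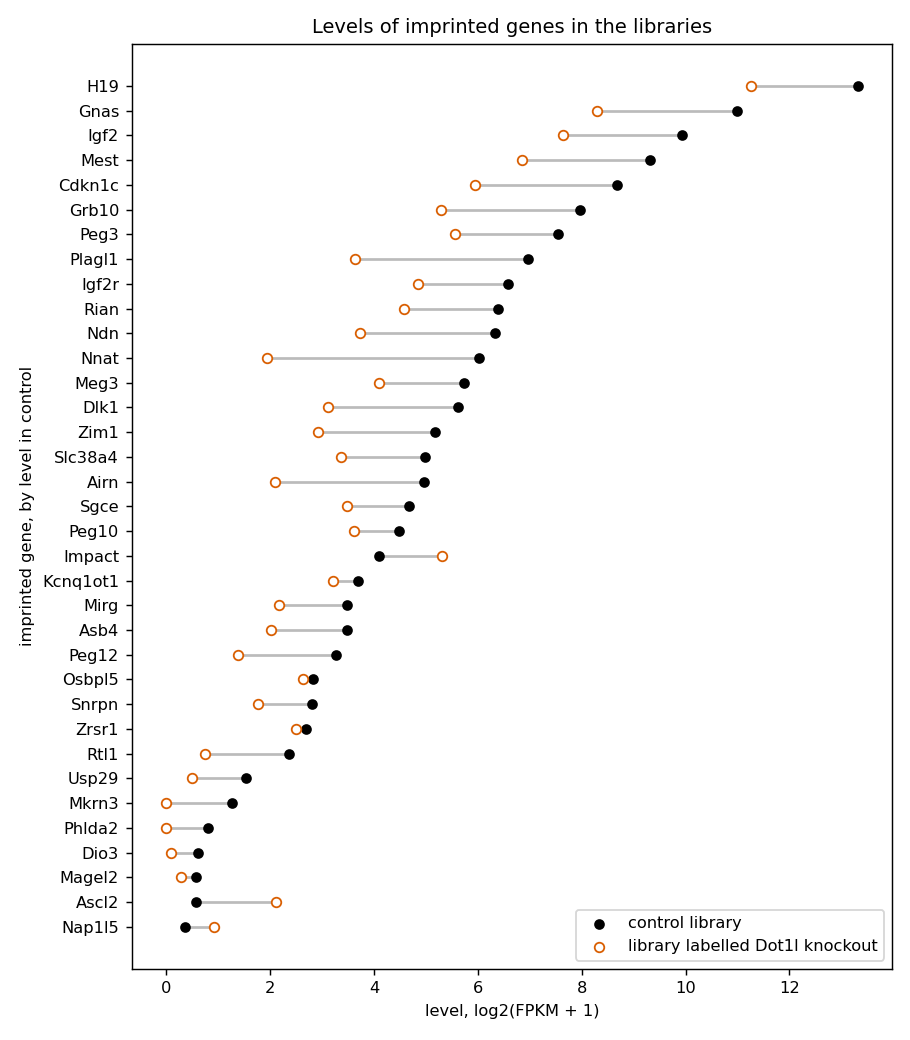
Levels of the 35 imprinted genes, as log2(FPKM + 1) on the horizontal axis, ordered by their level in the control library. Filled points are the control library and open points the library labelled Dot1l knockout, with 1 library each. H19 is the highest in both, and Impact, Ascl2 and Nap1l5 are the members whose open point lies to the right of the filled one.

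H19, a maternally expressed noncoding RNA, had the highest FPKM of all 24319 rows in control. It stood at 10202 FPKM in control and at 2447 FPKM in the knockout-labelled library, where it ranked 14th, a ratio of 4.17 and a log2 difference of -2.06. H19 alone made up 66.0% of the members' summed FPKM in control and 71.3% in the knockout-labelled library. Without it, the sum of the other members was 5256 FPKM in control and 985 FPKM in the knockout-labelled library, so the lower sum was not H19 alone.

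Igf2, the fetal growth factor that shares enhancers with H19 and is expressed from the opposite, paternal allele, was at 977 FPKM in control and 199 FPKM in the knockout-labelled library. Its log2 difference was -2.29, close to that of H19, and the ratio of H19 to Igf2 was 10.4 and 12.3. The neighbours on opposite alleles were thus both lower, by similar amounts. Igf2os, an RNA antisense to Igf2, was at 5.14 and 0.875 FPKM. Reads of such overlapping genes cannot be told apart unless strand was used in the counting, which the sources used here do not say.

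Igf2r, the maternally expressed receptor that carries IGF2 to lysosomes and so restrains growth, was at 94.6 FPKM in control and 27.7 FPKM in the knockout-labelled library, a log2 difference of -1.74. Airn, the paternally expressed noncoding RNA that overlaps Igf2r in antisense and silences it in cis, was at 29.99 and 3.28 FPKM, a log2 difference of -2.86. The silencer and its target were therefore both lower, and the ratio of Igf2r to Airn was 3.15 in control and 8.45 in the other library. Grb10, an adaptor that dampens signalling of the insulin and IGF receptors, was at 250 and 38.2 FPKM, with a log2 difference of -2.68. It is expressed from the maternal allele in most tissues.

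Other genes of the IGF pathway were lower in part. Of 14 tested genes of this list (ligands, receptors, binding proteins, substrates and mRNA-binding proteins, without the members) 7 were lower and none was higher, with a median difference of -0.96. Among those lower, Igfbp7, a binding protein that is high in endothelium, was at 404 FPKM in control and 54.9 FPKM in the knockout-labelled library. Igfbp3, the main carrier of IGFs in serum, was at 97.7 and 15.2 FPKM, Igfbp6 at 17.2 and 1.56 FPKM, and Igfbp5 at 38.9 and 17.7 FPKM. Igfbp2 was at 10.5 and 3.40 FPKM, and Igf2bp2, which binds Igf2 mRNA, at 20.1 and 5.06 FPKM. Irs1, a substrate of both receptors, was the remaining lower gene, at 9.71 and 2.28 FPKM. The 7 others lay within 2-fold, and 4 of these had a positive difference. Those 4 were Igfbp4 (156 and 214 FPKM), Igf2bp3 (24.2 and 36.4 FPKM), Irs2 and Insr. Igf1 was at 53.1 and 37.5 FPKM. Over all genes tested 15.5% were lower and 16.8% were higher. Pan-endothelial and fibroblast markers were lower in the same comparison, as given above.

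Cdkn1c, a maternally expressed inhibitor of cyclin-dependent kinases, was at 407 FPKM in control and 60.6 FPKM in the knockout-labelled library. Its log2 difference was -2.73, and none of the other 3 tested members of its cluster was lower by 2-fold. Kcnq1ot1, the paternally expressed noncoding RNA that silences the cluster, was at 11.9 and 8.20 FPKM, within 2-fold. Osbpl5, a lipid transfer protein that is imprinted in placenta, was at 6.12 and 5.20 FPKM, also within 2-fold. Ascl2, a transcription factor of the placental trophoblast, was the member with the largest positive difference, at 0.483 FPKM in control and 3.33 FPKM in the knockout-labelled library. These values rest on about 7 and 43 fragments at the estimated depth, and with a pseudocount of 5 the log2 difference of Ascl2 fell under 2-fold, from 1.55 to 0.60. Phlda2, which restrains placental growth, was at 0.750 FPKM in control, was listed at 0 in the knockout-labelled library and was not tested. The ratio of Cdkn1c to Kcnq1ot1 was 34.3 in control and 7.39 in the knockout-labelled library.

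Plagl1, a paternally expressed zinc finger transcription factor that is known to bind at several imprinted genes, had the second largest negative difference of all members. It was at 125 FPKM in control and 11.5 FPKM in the knockout-labelled library, a 10.9-fold lower level. Hymai, a noncoding RNA of the same locus, was at 10.7 and 3.73 FPKM. The largest negative difference was that of Nnat, which encodes neuronatin, a small membrane protein of the endoplasmic reticulum. Nnat was at 64.3 and 2.85 FPKM, a 22.6-fold lower level and a log2 difference of -4.08. Nnat lies within an intron of Blcap, whose level was 6.34 FPKM in control and 7.65 FPKM in the knockout-labelled library. Peg3, a zinc finger protein linked to maternal behaviour and growth in mice, was at 185 and 46.0 FPKM.

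At the Dlk1-Dio3 cluster, all 5 tested members were lower, whichever allele they are expressed from. Among all 31 tested members 25 were lower, and among all genes tested 15.5% were. Dlk1, the paternally expressed membrane protein that restrains adipocyte differentiation, was at 48.1 FPKM in control and 7.71 FPKM in the knockout-labelled library, a log2 difference of -2.50. The maternally expressed noncoding RNAs lie in tandem and had close differences: Meg3 at 52.3 and 16.2 FPKM (-1.63), Rian, a host of small nucleolar RNAs, at 82.3 and 23.0 FPKM (-1.80), and Mirg, a host of microRNAs, at 10.2 and 3.48 FPKM (-1.32). The ratio of Rian to Meg3 was 1.58 in control and 1.42 in the knockout-labelled library, and that of Mirg to Meg3 was 0.194 and 0.215. Rtl1, a paternally expressed protein derived from a retrotransposon that the capillaries of the placenta need, was at 4.12 and 0.667 FPKM (-1.62). With a pseudocount of 5 in place of 1, Mirg (-0.84) and Rtl1 (-0.69) were no longer lower by 2-fold. Dio3, which inactivates thyroid hormone, was at 0.524 and 0.0643 FPKM and was not tested. The reference holds 58 microRNA genes between Dlk1 and Dio3, and all 58 were listed at 0 in both libraries, so their precursors gave no value here.

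At the Ndn-Snrpn cluster, where all 5 members are expressed from the paternal allele, the 4 tested members were lower. This too stands beside 25 of all 31 tested members and 15.5% of all genes tested. Ndn, which encodes the growth suppressor necdin, was at 79.1 FPKM in control and 12.3 FPKM in the knockout-labelled library, and Peg12, a relative of the FRAT proteins that bind the kinase GSK3, at 8.67 and 1.59 FPKM. Snrpn, which encodes a protein of the spliceosome, was at 6.04 and 2.39 FPKM, just past 2-fold on the log2(FPKM + 1) scale (-1.05). Snurf, which shares its transcript with Snrpn, was at 2.30 and 2.33 FPKM, so the split of reads between this pair is uncertain. Mkrn3, a ubiquitin ligase that takes part in the timing of puberty, was at 1.40 FPKM in control and listed at 0 in the knockout-labelled library. With a pseudocount of 5 Snrpn (-0.58) and Mkrn3 (-0.36) were no longer lower by 2-fold. Magel2, a partner of ubiquitin ligases, was under 1 FPKM in both, at 0.496 and 0.218.

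At the Peg3 locus, Zim1, a maternally expressed zinc finger gene, was at 35.3 FPKM in control and 6.61 FPKM in the knockout-labelled library, a log2 difference of -2.25 beside -1.98 for the paternally expressed Peg3. Usp29, a ubiquitin protease that starts next to Peg3 on the other strand, was at 1.89 and 0.403 FPKM (-1.04), and came under 2-fold with a pseudocount of 5 (-0.35). At the Peg10-Sgce locus the differences were smaller. Sgce, a sarcoglycan of the cell membrane, was at 24.5 and 10.2 FPKM (-1.19), and Asb4, an adaptor of ubiquitin ligases that is expressed from the maternal allele, at 10.2 and 3.05 FPKM (-1.46). With a pseudocount of 5 both came just under 2-fold, at -0.96 and -0.91. Peg10, a protein of retrotransposon origin that placental growth needs, was at 21.2 and 11.3 FPKM and stayed within 2-fold (-0.86), but passed it with both libraries scaled to sum to 1000000 (-1.23).

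The remaining members do not share a cluster with another member. Gnas, which encodes the alpha subunit of the stimulatory G protein and is imprinted differently at each of its promoters, was at 2033 FPKM in control and 313 FPKM in the knockout-labelled library, and the value pools all its promoters. It ranked 9th of all rows in control and 224th in the other library. Mest, a paternally expressed protein with a hydrolase fold, was at 632 and 114 FPKM, and Copg2, whose transcript overlaps it, at 17.6 and 21.4 FPKM. Slc38a4, an amino acid transporter, was at 30.8 and 9.27 FPKM. Zrsr1, a splicing factor gene within an intron of Commd1, was at 5.49 and 4.62 FPKM, within 2-fold, as was Commd1 at 150.0 and 116 FPKM. Nap1l5, a relative of nucleosome assembly proteins, was under 1 FPKM in both libraries, at 0.287 and 0.886.

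Impact, which restrains the amino acid sensor kinase GCN2, was the only paternally expressed member at least 2-fold higher. It was at 16.0 FPKM in control and 38.6 FPKM in the knockout-labelled library, a ratio of 2.41 and a log2 difference of 1.22. With both libraries scaled to sum to 1000000 its log2 difference was 0.90, under 2-fold.

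**Figure D2:**
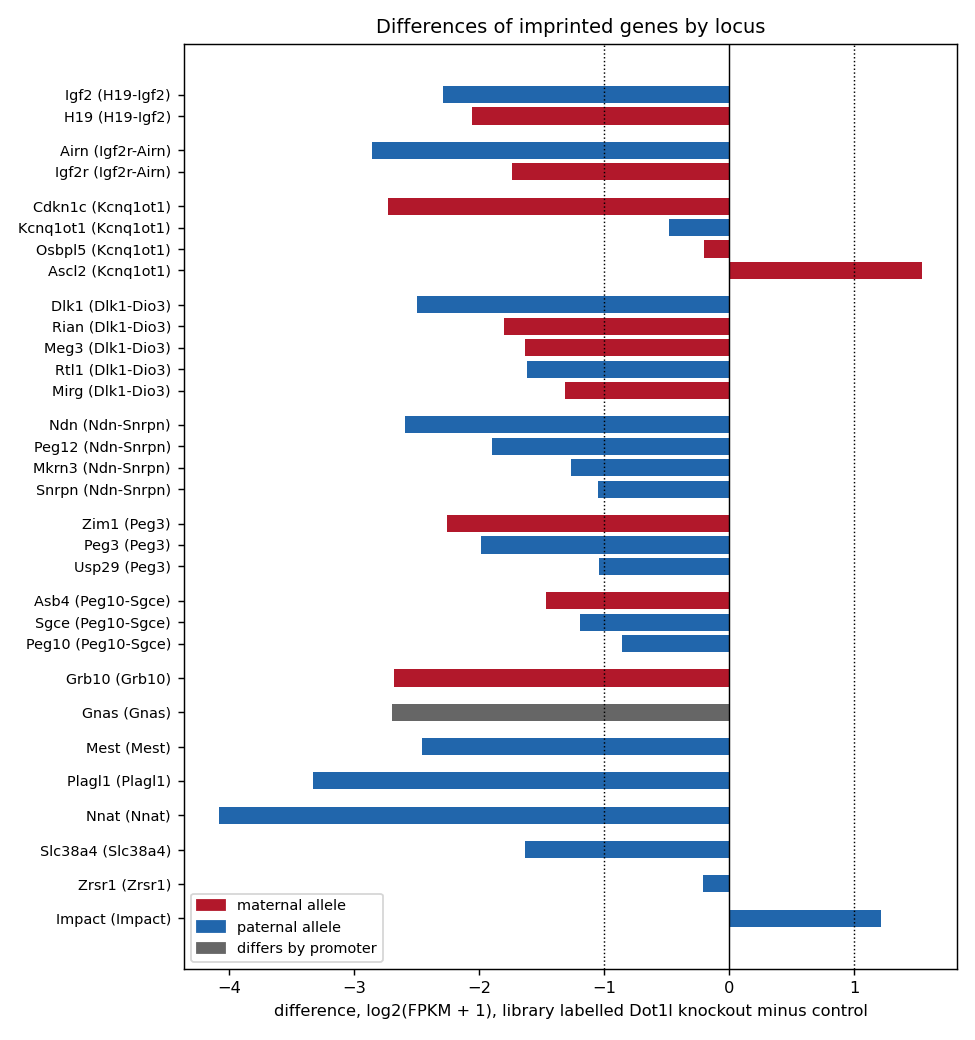
Differences of the 31 tested imprinted genes on the log2(FPKM + 1) scale, library labelled Dot1l knockout minus control, with bars coloured by the expressed parental allele and grouped by locus, and dotted lines at 2-fold. Bars of opposite colour at the H19-Igf2, Igf2r-Airn, Dlk1-Dio3 and Peg3 loci point the same way, whereas the Kcnq1ot1 cluster holds Cdkn1c at -2.73 and Ascl2 at 1.55.

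Members of both parental classes were lower. Among 11 tested members expressed from the maternal allele 9 were lower and 1 higher, with a median difference of -1.74. Among 19 expressed from the paternal allele 15 were lower and 1 higher, with a median of -1.63. Which allele the reads came from was not measured, so these are levels of whole genes and not a test of imprinting. By kind of product, 5 of 6 noncoding RNAs were lower, with a median of -1.71, as were all 3 growth factors and receptors (median -2.29) and 6 of 7 signalling adaptors and membrane proteins (median -1.90). Of 5 transcription factors and nuclear proteins 4 were lower (median -2.25), and of 5 ubiquitin and RNA factors 3 were lower (median -1.05). Both enzymes, 1 of 2 retrotransposon-derived proteins and the single growth inhibitor tested, Cdkn1c, were lower as well. These classes hold too few genes to be ranked. Over all genes tested 15.5% were lower and 16.8% were higher. Ascl2, the higher maternal member, reached the minimum of 1 FPKM only in the knockout-labelled library. Rtl1, Mkrn3 and Usp29, counted as lower, reached it only in control.

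**Figure D3:**
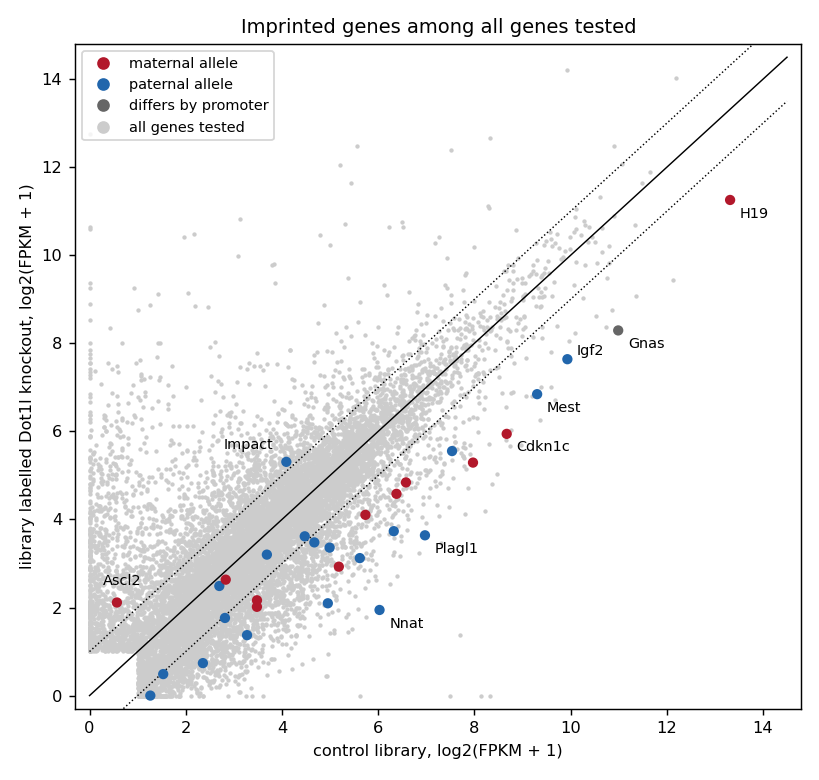
Each tested gene by its level in control (horizontal axis) and in the library labelled Dot1l knockout (vertical axis), both as log2(FPKM + 1), with imprinted genes coloured by expressed allele and all 13296 genes tested in grey. The solid line marks equal levels and the dotted lines 2-fold, and 25 of the 31 coloured points lie on or below the lower dotted line.

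Genes that lie next to the members were counted by the same rule. For each of the 16 loci the nearest 5 tested genes on each side, and any other gene inside the locus, were taken from the RefSeq gene order, a comparison chosen after the members' values were seen. Of 175 such neighbours 37 were lower (21.1%), 26 were higher (14.9%) and 112 lay within 2-fold. Their median difference was -0.05. Of all genes tested 15.5% were lower and 16.8% were higher. Of the 155 neighbours that are not on the wider list of imprinted genes given below, 36 were lower and 21 higher. These 155 still hold genes that accompany members, such as Igf2os, Hymai, Peg3os and Snhg14, which were lower, and Snurf, within 2-fold. They are thus not a set free of imprinted genes. Of the 150 neighbours outside the loci 29 were lower and 23 higher. Of the 25 neighbours inside or overlapping a locus 8 were lower, 3 were higher and 14 lay within 2-fold. The lower ones included noncoding RNAs that accompany members: Peg3os, antisense to Peg3, at 7.20 FPKM in control and 2.52 FPKM in the knockout-labelled library, and Snhg14, the long transcript that runs on from Snrpn, at 7.54 and 1.94 FPKM. The 3 higher ones were Tspan32 (1.05 and 27.8 FPKM) and Tnfrsf26 (0.869 and 3.03 FPKM) of the Kcnq1ot1 cluster and Pon3 (2.89 and 22.8 FPKM) of the Peg10-Sgce locus. Among those within 2-fold were Cd81, a tetraspanin gene of the Kcnq1ot1 cluster, at 142 and 159 FPKM, and Nap1l4 of the same cluster at 66.7 and 61.5 FPKM.

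A wider list of 42 genes that are imprinted in some mouse tissues was also set beside the members. Of these 32 were tested, 3 were lower and 7 higher, with a median difference of 0.09. Among all genes tested the shares were 15.5% lower and 16.8% higher. The 3 lower genes, named after their values were seen, were Ano1, a chloride channel (3.72 and 0.394 FPKM), Klf14, a transcription factor (2.40 and 0.428 FPKM), and Htr2a, a serotonin receptor (2.40 and 0.701 FPKM). The 7 higher genes were Ddc, the decarboxylase that makes dopamine and serotonin (0.442 FPKM in control and 31.3 FPKM in the knockout-labelled library), Tspan32 (1.05 and 27.8 FPKM), Slc22a3 (0.146 and 10.3 FPKM), Cobl (1.13 and 15.4 FPKM), Pon3 (2.89 and 22.8 FPKM), Ampd3 (1.68 and 10.4 FPKM) and Gatm (11.5 and 39.7 FPKM). All of these but Gatm were under 3 FPKM in control. Ddc and Slc22a3 reached 1 FPKM only in the knockout-labelled library, and the 3 lower genes only in control. In the same comparison macrophage and mast cell markers had medians of 6.12 and 5.79, and their part in these values was not tested.

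Genes that keep or remove imprints mostly lay within 2-fold. Of 20 tested genes 18 did so, with a median difference of 0.01. Most genes did likewise: of all 13296 tested, 9005 lay within 2-fold, 15.5% were lower and 16.8% were higher. Dnmt1, the enzyme that copies DNA methylation at division, was at 67.8 FPKM in control and 60.1 FPKM in the knockout-labelled library, and its partner Uhrf1 at 43.6 and 45.0 FPKM. Zfp57, the zinc finger protein that binds methylated imprinting control regions, was the single lower gene, at 31.0 and 13.4 FPKM, and Trim28, the corepressor it recruits, was at 47.5 and 40.3 FPKM. Tet3, which oxidises methylated cytosine, was the single higher gene, at 8.44 and 21.4 FPKM.

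Markers of several other cell types were also lower, whereas all 14 macrophage and all 10 mast cell markers were higher, as given above. Among all genes tested, 15.5% were lower and 16.8% were higher. Of 15 fibroblast markers 14 were lower, and their summed level was 4672 FPKM in control and 1111 FPKM in the knockout-labelled library, a ratio of 4.20. The summed level of the 35 imprinted genes had a ratio of 4.50, and of 5.34 without H19. For the other lists of this paragraph the ratio ran from 1.25 (Schwann cell and melanocyte) to 6.43 (pericyte and smooth muscle). It was 3.70 for pan-endothelial and 5.70 for adipocyte markers. All 10 pericyte and smooth muscle markers were lower (median -2.56), as were 7 of 8 adipocyte markers (median -2.77), 6 of 10 keratinocyte markers (median -1.16), 5 of 9 skeletal muscle markers (median -1.27) and 4 of 7 Schwann cell and melanocyte markers (median -1.20). Of 5 tested erythroid markers 1 was lower, and the list median was 0.34. The lower one was Hba-a1, at 173.8 FPKM in control and 25.1 FPKM in the knockout-labelled library, which made up most of the summed level of that list. Of the 31 tested members 13 had a more negative difference than the median fibroblast marker and 14 than the median pan-endothelial marker. The part of any of these cell types in the levels of the imprinted genes was not tested.

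**Figure D4:**
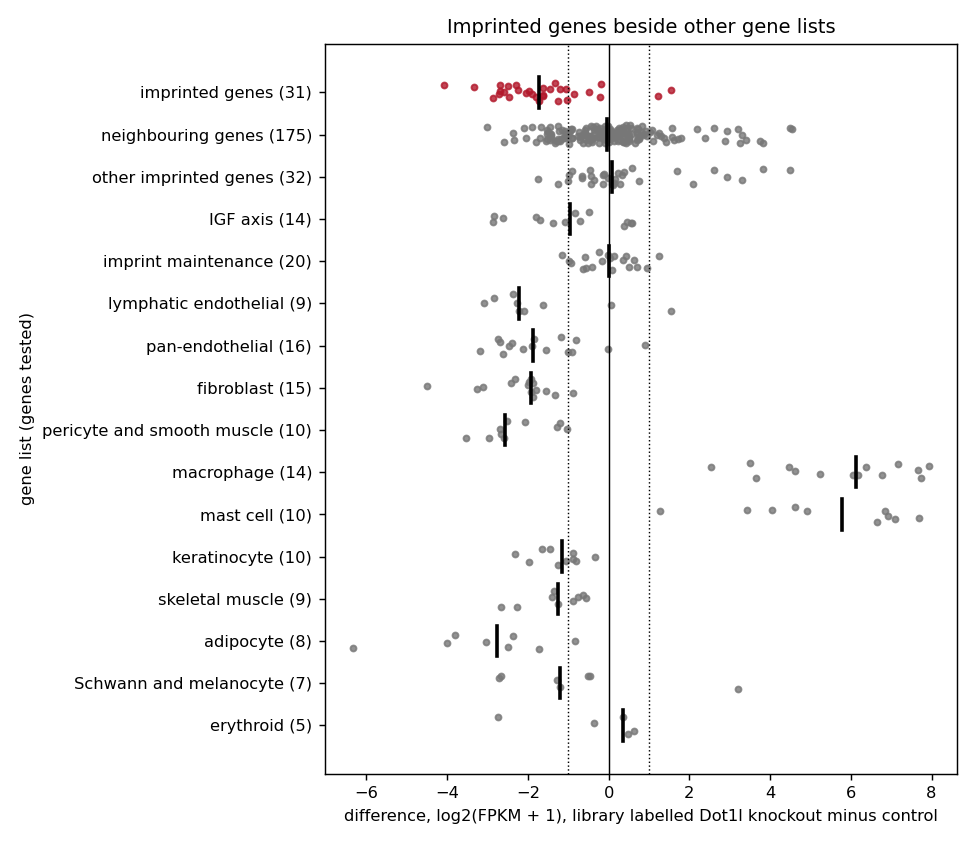
Differences of the tested genes of each list on the log2(FPKM + 1) scale, library labelled Dot1l knockout minus control, with 1 point per gene, vertical bars at list medians and dotted lines at 2-fold; points are spread vertically only to be seen. The median of the imprinted genes was -1.74. Among cell type lists with more genes lower than higher, apart from the erythroid list, medians ran from -2.77 (adipocyte) to -1.16 (keratinocyte). Macrophage and mast cell markers had medians of 6.12 and 5.79. The neighbouring genes, the wider imprinted list and the imprint maintenance genes are centred near 0. The part of any cell type in the values of the imprinted genes was not tested.

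Promoter sequences are shown to set members with large differences beside those within 2-fold. They were taken from the RefSeq promoter table (GRCm38.p6, windows of 300 bases that end just past the annotated start), in which 29 of the 35 members had 47 windows. Cdkn1c, H19, Impact, Peg10, Rtl1 and Sgce are named only. Capitals mark CpG dinucleotides, the targets of DNA methylation. Nnat (chr2:157559828-157560127, plus strand) and Plagl1 (chr10:13090582-13090881, plus strand) had the largest negative differences. Peg3 (chr7:6730370-6730669, minus strand) shares 263 of these bases with the window of Usp29, which runs the other way. Igf2r (chr17:12769657-12769956, minus strand) and Airn (chr17:12741061-12741360, plus strand) run in opposite directions at the same locus. Kcnq1ot1 (chr7:143296498-143296797, minus strand) and Zrsr1 (chr11:22971755-22972054, plus strand) lay within 2-fold.
Nnat: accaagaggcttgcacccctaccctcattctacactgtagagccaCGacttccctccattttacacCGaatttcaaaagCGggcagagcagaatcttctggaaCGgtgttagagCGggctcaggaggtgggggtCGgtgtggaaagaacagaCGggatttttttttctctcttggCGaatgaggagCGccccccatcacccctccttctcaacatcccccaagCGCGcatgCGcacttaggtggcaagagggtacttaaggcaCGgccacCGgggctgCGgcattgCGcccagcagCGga
Plagl1: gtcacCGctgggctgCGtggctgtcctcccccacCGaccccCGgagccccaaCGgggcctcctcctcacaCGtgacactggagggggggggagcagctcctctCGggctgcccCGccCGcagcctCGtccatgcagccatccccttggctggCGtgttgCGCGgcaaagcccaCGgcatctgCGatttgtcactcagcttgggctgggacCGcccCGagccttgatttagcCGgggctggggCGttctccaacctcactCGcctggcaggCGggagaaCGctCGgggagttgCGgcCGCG
Peg3: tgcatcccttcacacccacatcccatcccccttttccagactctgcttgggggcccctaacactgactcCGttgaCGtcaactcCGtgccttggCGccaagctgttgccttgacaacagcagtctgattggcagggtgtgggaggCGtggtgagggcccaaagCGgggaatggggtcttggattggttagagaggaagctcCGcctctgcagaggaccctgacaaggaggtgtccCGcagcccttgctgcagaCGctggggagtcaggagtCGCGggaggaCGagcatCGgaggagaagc
Igf2r: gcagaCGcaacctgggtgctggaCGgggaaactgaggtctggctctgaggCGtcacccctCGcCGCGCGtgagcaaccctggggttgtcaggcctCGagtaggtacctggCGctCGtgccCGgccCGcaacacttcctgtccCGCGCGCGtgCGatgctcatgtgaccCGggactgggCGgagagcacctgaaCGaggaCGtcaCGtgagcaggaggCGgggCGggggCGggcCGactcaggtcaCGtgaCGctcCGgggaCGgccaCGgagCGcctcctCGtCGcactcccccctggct
Airn: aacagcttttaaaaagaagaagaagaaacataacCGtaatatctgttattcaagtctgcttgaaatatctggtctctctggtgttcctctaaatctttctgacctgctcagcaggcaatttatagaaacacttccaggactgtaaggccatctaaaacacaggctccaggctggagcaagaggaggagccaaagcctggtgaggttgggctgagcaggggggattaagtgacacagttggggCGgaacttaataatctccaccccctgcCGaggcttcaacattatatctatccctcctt
Kcnq1ot1: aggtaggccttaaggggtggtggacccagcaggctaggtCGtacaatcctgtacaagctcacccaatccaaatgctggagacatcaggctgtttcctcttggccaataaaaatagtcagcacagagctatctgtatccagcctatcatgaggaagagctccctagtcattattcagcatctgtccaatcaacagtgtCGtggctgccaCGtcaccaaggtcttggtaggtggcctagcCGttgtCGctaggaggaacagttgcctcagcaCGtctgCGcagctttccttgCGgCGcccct
Zrsr1: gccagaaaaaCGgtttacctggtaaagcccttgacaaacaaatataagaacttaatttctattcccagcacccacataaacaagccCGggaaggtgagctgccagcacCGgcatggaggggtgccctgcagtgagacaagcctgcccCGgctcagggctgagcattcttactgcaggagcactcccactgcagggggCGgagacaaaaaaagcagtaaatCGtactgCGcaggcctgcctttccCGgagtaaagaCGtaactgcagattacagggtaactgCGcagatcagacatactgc

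The windows above hold 17 CpG in Nnat, 26 in Plagl1, 13 in Peg3, 34 in Igf2r and 3 in Airn, against 9 in Kcnq1ot1 and 10 in Zrsr1. Members within 2-fold thus lay between the CpG counts of members that were lower. Over the 47 windows of members the median was 12 CpG (range 0 to 45), and over all 32851 windows in the table it was 7. The letters TGCCGC, known as the core that ZFP57 binds when methylated, were searched on both strands (GCGGCA on the other). They contain a CpG and so overlap the capitals. They were in 11 of the 47 windows (23.4%), from 10 genes, and in 11.6% of all windows, where windows of 1 gene can overlap. Of the sequences shown, Nnat and Plagl1 each hold it once. The other genes were Mest, Zim1, Snrpn, Igf2, Grb10 and Meg3, all lower, Osbpl5, within 2-fold, and Nap1l5, not tested. Since 25 of all 31 tested members were lower, these calls do not set genes with the letters apart. The shares were not matched for CpG content. The letters GGGGCCCC, known as a site of PLAGL1 and the same on both strands, were in 2 windows of members (4.26%) and in 1.08% of all windows. Both were the same site, in the bases that Peg3 and Usp29 share. A match describes these windows only and is not a bound site.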

How the data were processed

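RNA was pooled from 2 to 3 biological replicates per genotype and made into libraries with the ScriptSeq v2 kit, per the labels' protocols. The authors deposited 1 value per gene symbol and library, taken here as FPKM because Cufflinks and Cuffnorm are named; no header gives the unit. STAR 2.5.2b, Cufflinks 2.2.1, Cuffnorm, R 3.3.2 and the build mm9 are named in the submitters' processing notes. For the role of each, the annotation, the use of strand and any scaling between libraries, nothing is stated in the sources used here. The labels also carry a protocol for cultured dermal LECs, and whether the sequenced cells were cultured is not given. A spreadsheet had turned some symbols into dates; none of these is a member.

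Differences were computed as log2(FPKM + 1) with Python 3.11.15, pandas 2.3.3 and numpy 2.4.6, and drawn with matplotlib 3.10.9. A gene was tested if either library had it at 1 FPKM or more, and 2-fold was the call. The steps were run on simulated data in which well-expressed genes had known changes and no noise, which checks the arithmetic only. With 1 library per genotype no statistical test was run. All listed members are named; from the lists of other imprinted genes, the IGF axis and imprint maintenance, genes that reached 10 FPKM in at least 1 library and differed 2-fold are named. Cell type markers are given as lists with a few defining genes. Further genes, neighbours included, were named after their values were seen. The members and lists were chosen with earlier results of these data known. The neighbouring genes, the motifs and the promoters shown were also chosen after values were seen.

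Depth is not stated. Among genes with 1 annotated transcript of at least 2500 nt, and with an assumed fragment of 200 nt, low values lay within 0.1 of whole fragments in 82.4% of 159 values (control) and 76.0% of 175 values (knockout-labelled). The depth of each library was picked from a range as the one that best brought these values near whole fragments, so the shares do not check it. Unless the values were scaled further, the depths were near 10300000 and 9100000 fragments, and 1 FPKM over 2 kb stands for some 18.5 and 16.4 fragments. Whole fragments were looked for among these genes only, so count models were not used. Alternatives were other pseudocounts, scalings, minimums and fold thresholds, and leaving out noncoding RNA members.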

Additional observations from a re-analysis of the deposited data

How the results depend on the processing

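No paired analysis was possible because there is a single library for either genotype, and for the same reason leaving out a replicate was not run. The 25 lower members were between 18 (pseudocount 5) and 26 (1.5-fold, or a sum of 1000000 in each library) under every alternative run, and the median difference of the members between -1.43 and -2.17. The 2 higher members became 1 with a pseudocount of 5, with a sum of 1000000 or with a minimum of 5 FPKM, and 0 at 3-fold. The median of paternally expressed members moved from -1.63 to -2.30 with a pseudocount of 0.1 and to -2.27 with a sum of 1000000, and the other way to -1.05 with a pseudocount of 5. Over all genes, the 2060 lower became 921 with a pseudocount of 5, 3330 with a sum of 1000000, 3450 at 1.5-fold and 906 at 3-fold, and the 2231 higher became 1323, 1900, 3464 and 1298. The cause of these shifts was not tested. Of the 31 tested members, 21 kept their direction and their side of 2-fold under every pseudocount, scaling and minimum under which they were tested, and none reversed. With a pseudocount of 5, 8 members came under 2-fold: Asb4, Ascl2, Mirg, Mkrn3, Rtl1, Sgce, Snrpn and Usp29. With 1 pool per genotype there is no spread between embryos, and macrophage and mast cell markers also differed between the pools.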
